A study of Mus musculus with 30 samples.

Results

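The mitochondrial genome and the nuclear machinery that copies and expresses it were followed through 39 genes. They are the 13 protein genes of mouse mitochondrial DNA and 26 nuclear genes, of which 7 act in mitochondrial transcription, 5 in replication of the mitochondrial DNA, 9 in the handling of mitochondrial RNA and 5 as regulators of such genes in the nucleus. The members were chosen by their known roles, though with earlier results of these data known. All 39 were found among the 30205 genes measured and passed the filter on low counts in every fit. RNA was sequenced from C2C12 cells, an immortal mouse myoblast line, and from primary myoblasts isolated from hindlimb muscle of 8-week-old C57/Bl6J mice. Cells were taken as confluent myoblasts before serum withdrawal (D0) and as myotubes after 4 or 7 days of differentiation (D4, D7) on gelatin hydrogel moulded with grooves (patterned), on flat gelatin (unpatterned) or on culture plastic. The 30 libraries form 10 groups of 3, which are primary myoblasts on plastic at D0, primary myotubes on patterned gelatin at D4 and D7, C2C12 myoblasts on plastic at D0, and C2C12 myotubes of each of the 3 substrates at D4 and D7. Values of a group are given in the order of the replicate numbers. The labels give plastic as the substrate of both D0 groups, although the methods describe dishes coated with a matrix gel for growing primary cells. The change between D0 and D4 is therefore also a change of substrate in primary cells, where day and substrate cannot be told apart. In C2C12 cells D4 can be set against D0 on plastic, and the substrates against each other at D4 and D7. Myotubes were lifted by brief trypsin treatment before lysis, the sources used here do not say whether the cells of the 3 mice were pooled, and the labels do not say from which batch of C2C12 cells a library came, so that no batch term was fitted.

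Mitochondrial DNA is a small circle that encodes 13 subunits of the respiratory chain and the ribosomal and transfer RNAs needed to translate them. The RNA polymerase Polrmt, with the DNA-packaging factor Tfam and the methyltransferase-related factor Tfb2m, transcribes both strands into long RNAs that are cut at the transfer RNAs, and the RNA-binding partners Lrpprc and Slirp keep the messenger RNAs stable. All of these proteins are made from nuclear genes, many of which are bound by the transcription factors Nrf1, Gabpa and Esrra and by the coactivators Ppargc1a and Ppargc1b, which are known for the build-up of mitochondria in muscle fibres.

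The messages of the mitochondrial genome lie so close together that some share bases, which bears on how reads can be assigned to them. Mitochondrial genes are given on GRCm38 (mm10). The first line below shows the end of mt-Atp8 (chrM:7766-7969, plus strand) and the start of mt-Atp6 (chrM:7927-8607, plus strand), with the 43 bases that belong to both in capitals and 20 bases on each side. The second shows the same for mt-Nd4l (chrM:9877-10173, plus strand) and mt-Nd4 (chrM:10167-11544, plus strand), which share 7 bases.
mt-Atp8 into mt-Atp6: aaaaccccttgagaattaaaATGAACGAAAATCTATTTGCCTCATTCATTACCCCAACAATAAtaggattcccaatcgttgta
mt-Nd4l into mt-Nd4: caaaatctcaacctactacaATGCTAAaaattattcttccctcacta
Reads that lie in the shared bases fit both genes, so the split of counts within these pairs is uncertain. mt-Nd6 (chrM:13552-14070) is the only member on the minus strand, its end overlaps that of mt-Nd5 (chrM:11742-13565), and whether reads were counted by strand is not stated in the sources used here.

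Counts are also ambiguous because 11 of the 13 genes have copies in the nuclear genome that are annotated as genes of their own, 15 in all with at least 90% identity over at least 200 bases. The copy of mt-Co2 on chromosome 1, Gm28661, is identical to mt-Co2 (chrM:7013-7696) over its bases 1 to 681, and the transcripts part only in their last bases, shown here as the last 30 of each with the 3 that the copy lacks in capitals.
mt-Co2: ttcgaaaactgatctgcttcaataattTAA
Gm28661: tatttcgaaaactgatctgcttcaataatt
Gm28661 took 50.8% to 80.4% of the counts of this pair over the 30 libraries (median 69.3%). The copy of mt-Co3, Gm28437, took 1.52% to 45.4% (median 27.4%), and that of mt-Nd4, Gm28439, which matches bases 1 to 876 of 1378, took 3.45% to 51.5% (median 24.2%). Gm10925, the copy of mt-Atp6, took 0.0001% to 44.1% (median 0.665%), and in D7 patterned C2C12 libraries it took 11.1%, 16.9% and 38.3%. Gm28438, the copy of mt-Nd3, was at 0 in all 9 primary libraries and took up to 28.6% in C2C12 libraries. The other copies took at most 0.828% of their pair, and none was found for mt-Nd1 and mt-Atp8 by this rule. mt-Atp8 is barely longer than the 200 bases required, so that a copy of it could be missed. The levels of mt-Co2, mt-Co3, mt-Nd4, mt-Atp6 and mt-Nd3 below are therefore uncertain, and each edgeR comparison of them was also computed with the counts of the copies added. The TPM levels and the share of a library's counts from the 13 genes were computed without the copies only.

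**Figure D1:**
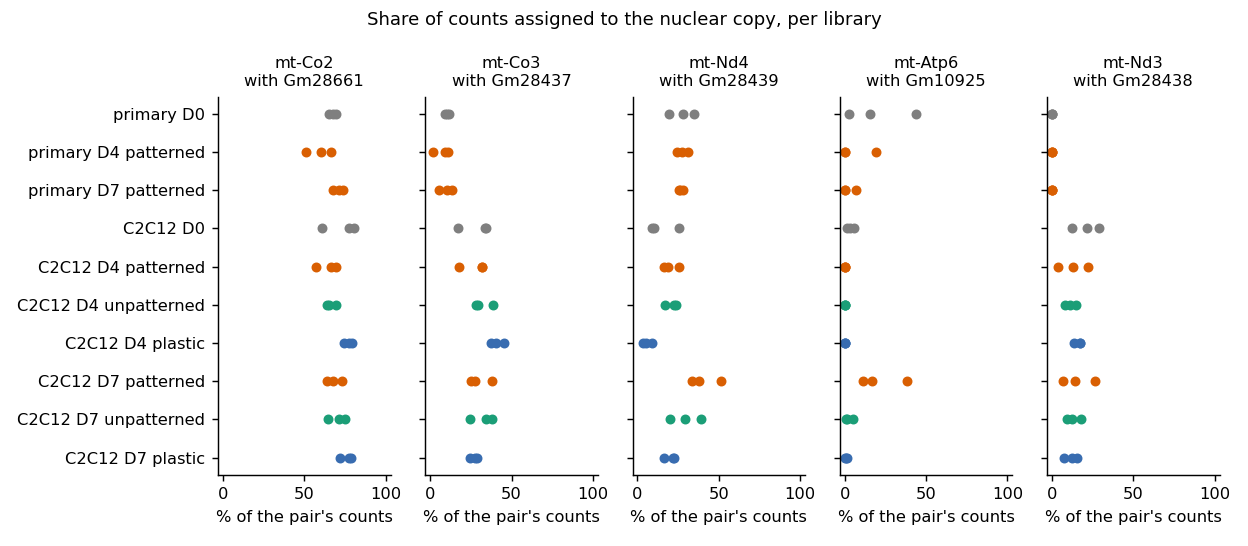
Share of a pair's estimated counts assigned to the nuclear copy (x axis, % of the counts of the mitochondrial gene and its copy together) for the 5 pairs with sizeable shares, 1 point per library and 1 row per group. The share of Gm28661 lies above 50% in every library, and that of Gm28438 is 0 in every primary library.

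The nuclear members are spread over the genome, and their promoters were read from RefSeq (GRCm38.p6), as windows of 250 bases before to 50 bases after each start, for 23 of the 26. The letters CCGGAAG or their reverse complement CTTCCGG, of the type bound by Gabpa, were found in windows of 13 of these 23 genes, against 9.93% of 27025 genes with a window of the same length. The letters GCGCNNGCGC, of the type bound by Nrf1, were found for 1 of 23 genes, against 7.0% of all genes. The letters AAGGTCA or TGACCTT, of the type bound by Esrra, were found for Fastkd5 and Twnk, against 5.38% of all genes. The 70 bases around the start, 60 before and 10 from it on, are shown for a transcription factor, the polymerase and an RNA-binding protein, with every match of these letters in capitals.
Tfam, chr10:71238035-71238104, minus strand: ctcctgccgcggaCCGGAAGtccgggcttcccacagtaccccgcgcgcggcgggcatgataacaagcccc
Polrmt, chr10:79746572-79746641, minus strand: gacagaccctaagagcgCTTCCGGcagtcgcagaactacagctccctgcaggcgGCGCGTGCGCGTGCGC
Slirp, chr12:87443836-87443905, plus strand: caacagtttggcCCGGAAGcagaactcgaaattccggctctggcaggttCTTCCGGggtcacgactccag
Slirp holds the first motif on each strand, and the capitals at the end of the Polrmt stretch are 2 overlapping matches of the second. These are matches of letters, and binding was not measured. Mterf3, Top1mt and Ppargc1b had no promoter entry.

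Total estimated counts ran from 13.1 to 59.4 M per library (M, mega, median 27.3 M). 2 features set libraries apart before any comparison. The D7 patterned C2C12 libraries were at 30.03, 16.8 and 13.1 M, and the third of them departed from the other pair in many members. Calls on members for this group against D4 patterned and D7 plastic C2C12 myotubes are therefore given with and without it. Other comparisons of the group give only some values without it. The mean shares of counts and the counts of the other gene lists were not computed without it. Among primary cells the library numbered 3 departed from the others in every group, as described below. Myotube markers summed to 10338 to 16834 CPM (counts relative to the scaled total of the library) at D4 and D7, against 559.7 in C2C12 and 1078 in primary myoblasts, while the proliferation markers summed to 28.5 to 192 CPM in myotubes, against 1487 in C2C12 and 387 in primary myoblasts. These are sums of group means, and single primary libraries differed widely in some myotube markers. At D7 primary libraries ran from 11.6 to 626 CPM for Ckm and from 1281 to 8075 CPM for Myh3. For Tnnt3 they ran from 1048 to 1511 CPM and for Mymk from 1074 to 1123 CPM. Mean Myog in primary cells was 433 CPM at D0, 608 CPM at D4 and 371 CPM at D7. Myoblast markers summed to 1707 CPM in C2C12 myoblasts and to 4059 to 5660 CPM in C2C12 myotubes. In primary cells they summed to 2660, 4622 and 4223 CPM at D0, D4 and D7. Des was the largest part of these sums in myotubes (3421 to 4973 CPM). Smooth muscle markers were at 118 to 177 CPM in C2C12 myotubes and at 4.904 to 12.96 CPM in primary myotubes. Fibroblast markers were at 229.9 to 417 CPM in C2C12 myotubes and 204 in C2C12 myoblasts, with 1 or 2 of the 6 genes at 0, and at 4.66 to 12.4 CPM in primary cells, with 2 of 6 at 0. Endothelial markers summed to at most 7.76 CPM and blood cell markers to at most 3.68 CPM in any group. The part of other cells in the results below was not tested. In bulk RNA, fewer cells of a type and less RNA per cell cannot be told apart.

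The members differ widely in level. Compared per length as median TPM (a share of the transcripts that corrects for their length) over the 30 libraries, mt-Co1, a core subunit of cytochrome c oxidase, stood at 17124, mt-Co3 at 11484, mt-Atp6 at 10929, mt-Cytb at 5788 and mt-Nd1 at 5503, with the caution on nuclear copies above. In counts with the copies added, mt-Co1 made up 28.4% to 49.6% of the mitochondrial messages in a library, mt-Nd6 0.33% to 3.09% and mt-Atp8, the smallest gene, 0.0899% to 0.898%. Among nuclear members Slirp had the highest median TPM, 170 (range 61.9 to 207), followed by Mterf3 at 80.0, Fastk at 74.0 and Tfam at 69.8. Polg2, the accessory subunit of the mitochondrial DNA polymerase, stood at 7.01 TPM and Ppargc1a at 5.43 TPM, the lowest median of the 26. Slirp, the highest of the nuclear members, thus lay below each of the 5 messages named here.

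The 13 genes, without their nuclear copies, took between 0.894% and 6.95% of a library's counts. This share was not computed with the copies added. In primary cells the share was 3.72%, 3.51% and 3.31% at D0, 4.80%, 4.86% and 6.87% at D4 and 4.67%, 4.66% and 6.95% at D7. C2C12 myoblasts held 2.80%, 2.03% and 2.38% at D0, and C2C12 myotubes at D4 held 4.21%, 2.70% and 4.00% when patterned, 3.21%, 4.28% and 3.90% when unpatterned and 3.52%, 3.05% and 3.89% on plastic. At D7 the share was 1.91%, 1.77% and 0.894% in patterned, 4.11%, 2.14% and 2.68% in unpatterned and 3.99%, 2.70% and 2.88% in plastic myotubes. All 3 D7 patterned C2C12 libraries lay under every other library of the series, and every primary library at D4 and D7 lay above every C2C12 library. The mean share was 1.52% ± 0.549 in D7 patterned C2C12 myotubes, against 3.19% ± 0.702 on plastic, 2.98% ± 1.02 on unpatterned gelatin and 3.64% ± 0.816 in D4 patterned myotubes (SD, n = 3 each). With 3 libraries against 3, an exact permutation test (two-sided) cannot go below p = 0.1, which is the value for each of these differences (adjusted p = 0.2 over 16 comparisons), so none can pass the threshold by this test.

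**Figure D2:**
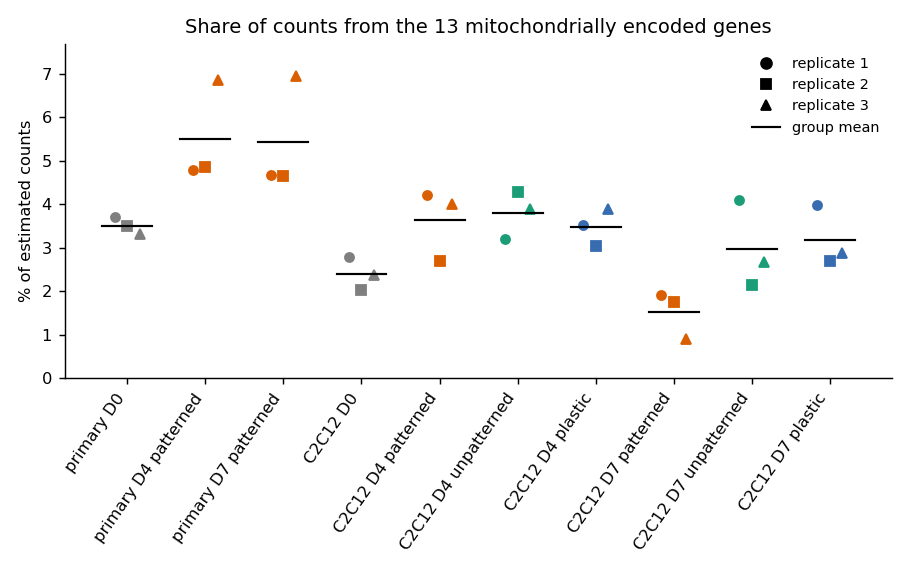
Percent of a library's estimated counts that came from the 13 mitochondrially encoded genes without their nuclear copies (y axis), 1 point per library by replicate number and a line at the group mean, for the 10 groups. The 3 libraries of D7 patterned C2C12 myotubes, at 1.91%, 1.77% and 0.894%, are the lowest of all, and 2 primary libraries numbered 3 are the highest, at 6.87% and 6.95%.

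The first comparison asks how the genes changed when C2C12 myoblasts became myotubes on the same plastic. At D4, 5 of the 13 mitochondrial messages rose and none fell (edgeR, 0 lower), with a median log2 fold change of 0.56, and 10 of 26 nuclear members rose and 5 fell. Both shares have to be read against the background, since 30.2% of all 14844 genes tested rose and 27.7% fell. mt-Nd5, a proton-pumping subunit of complex I, had 2649, 2193 and 3329.6 CPM in D4 plastic myotubes, against 1424, 758 and 1187 CPM in D0 myoblasts, with no overlap (log2 fold change 1.27 ± 0.35 SE, edgeR adjusted p = 0.00445). mt-Co1 had 13441, 11438 and 14712 CPM, against 8441, 7102 and 7907 CPM (0.75 ± 0.26, adjusted p = 0.0195), and mt-Nd4, mt-Nd4l and mt-Cytb rose by 1.22 ± 0.44, 1.11 ± 0.40 and 0.70 ± 0.29 on the log2 scale (edgeR adjusted p = 0.0224, 0.023 and 0.0474). The other 8 did not pass, though all had log2 fold changes of at least 0.41. The calls on mt-Co1, mt-Nd4 and mt-Nd4l rest on single libraries: without the third D4 plastic library their adjusted p (edgeR) was 0.062, 0.084 and 0.082, and without the second D0 library 0.069, 0.105 and 0.107. With the copies added, 7 of the 13 rose. Without the third D4 plastic library 11 members were called in place of 20.

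Among the regulators Ppargc1a, the coactivator that drives mitochondrial genes with Nrf1, Gabpa and Esrra, changed the most of all 39 members. It had 18.0, 19.9 and 18.4 CPM in D4 plastic myotubes, against 3.63, 3.65 and 4.23 CPM in myoblasts (log2 fold change 2.29 ± 0.16, edgeR adjusted p = 2.72e-10). Nrf1, the factor named above, fell to 27.6, 28.7 and 27.8 CPM, against 41.9, 47.4 and 41.4 CPM (-0.64 ± 0.08, adjusted p = 7.53e-07). Esrra rose by 0.70 ± 0.14 and Ppargc1b by 0.33 ± 0.12 while Gabpa fell by 0.27 ± 0.11, so that all 5 regulators passed the test, in both directions (edgeR adjusted p = 0.000373, 0.023 and 0.0432).

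Of the transcription genes, Tfb2m, which opens the promoter for the polymerase, had 48.7, 44.7 and 48.0 CPM in D4 plastic myotubes, against 31.1, 27.5 and 29.6 CPM (0.68 ± 0.08, edgeR adjusted p = 4.46e-07). Tefm, the elongation factor, and Mterf4, which guides an RNA methyltransferase to the mitochondrial ribosome, also rose, while Tfam had 43.1, 43.4 and 43.0 CPM, against 48.3, 48.4 and 49.6 CPM, and Polrmt 41.7, 46.5 and 43.1 CPM, against 36.2, 43.5 and 37.6 CPM, and neither passed. Among RNA-handling genes, Elac2, which cuts the 3' ends of transfer RNAs, rose by 0.47 ± 0.07 (edgeR adjusted p = 1.51e-05), Lrpprc by 0.44 ± 0.07 (1.58e-05) and Fastk by 0.52 ± 0.09 (6.73e-05). Pnpt1, the polynucleotide phosphorylase of the degradosome, fell by 0.45 ± 0.12 (0.00444), and Tbrg4, a FASTK family protein, fell by 0.19 ± 0.07 (0.0158). In replication, the helicase Twnk rose by 0.23 ± 0.09 and Polg2 fell by 0.40 ± 0.15 (edgeR adjusted p = 0.0325 and 0.0333).

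On patterned gelatin at D4, against the same D0 myoblasts on plastic, 4 mitochondrial messages rose and none fell (edgeR, 0 lower, median 0.75), and 12 nuclear members rose and 1 fell, where 30.9% of all genes rose and 29.3% fell. This comparison shares its D0 libraries with the one on plastic. The called messages were mt-Nd5 and those of cytochrome c oxidase. mt-Co2 had 1457, 1342 and 1491 CPM in D4 patterned myotubes, against 638, 792 and 675 CPM in myoblasts (log2 fold change 1.03 ± 0.23, edgeR adjusted p = 0.000696), and mt-Co1 had 17420.3, 11636 and 15731 CPM, against 8441, 7102 and 7907 CPM (0.93 ± 0.26, adjusted p = 0.00477). mt-Co3 rose by 0.75 ± 0.24 and mt-Nd5 by 1.04 ± 0.35 (edgeR adjusted p = 0.0115 and 0.0156), and the groups overlapped for mt-Nd5 because the second patterned library had 1071 CPM. That call was lost without the first or the third D4 patterned library or the second D0 library (edgeR adjusted p = 0.065, 0.08 and 0.078). With the copies added mt-Co2 rose by 0.58 ± 0.22 (edgeR adjusted p = 0.0286) and 5 of the 13 messages rose. Among nuclear members Ppargc1a rose by 2.75 ± 0.16 (1.72e-11), Tfb2m by 0.83 ± 0.08 (2.35e-08), Lrpprc by 0.68 ± 0.07 (5.03e-08) and Elac2 by 0.68 ± 0.07 (1.25e-07), and Nrf1 was the single nuclear member to fall, by 0.56 ± 0.08 (edgeR adjusted p = 3.72e-06).

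In primary cells between D0 and D4, 8 of 13 mitochondrial messages rose and none fell (edgeR, 0 lower, median 0.77), and 4 nuclear members rose and 4 fell, beside 20.2% of all 14352 genes that rose and 22.4% that fell. mt-Nd5 had 2769, 2438 and 3328 CPM at D4, against 1333, 1636 and 1462 CPM at D0 (log2 fold change 0.90 ± 0.16, edgeR adjusted p = 0.00238). mt-Nd1, the membrane subunit at the quinone site of complex I (chrM:2751-3707, plus strand), had 3782, 3537 and 5496 CPM, against 2412, 2215 and 2352 CPM (0.83 ± 0.21, adjusted p = 0.0108). mt-Co1 and mt-Co2 rose by 0.85 ± 0.22 and 0.75 ± 0.21 (edgeR adjusted p = 0.013 and 0.0206), but the call on mt-Co2 was lost without any 1 of 4 of its 6 libraries (edgeR adjusted p = 0.055 to 0.082) and with its copy added (0.43, adjusted p = 0.14). mt-Nd6 was at 458, 261 and 288 CPM, against 303, 398 and 636 CPM, and mt-Atp8 at 101, 53.1 and 153 CPM, against 114, 66.2 and 137 CPM, and the groups of both overlapped. Without the third primary D4 library 10 members were called in place of 16, and the median of the 13 was 0.48. Over the 6 refits without 1 library, 3 to 7 of the 13 messages were called higher in place of 8.

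The nuclear members that rose in primary cells were Ppargc1a, with 23.3, 26.6 and 11.4 CPM at D4, against 3.30, 2.01 and 3.81 CPM at D0 (log2 fold change 2.70 ± 0.51, edgeR adjusted p = 0.00311), Tfb2m (0.77 ± 0.13, 0.0014), Fastk (0.51 ± 0.10, 0.00432) and the ribosomal RNA methyltransferase Tfb1m (0.53 ± 0.14, 0.0148). Nrf1, Polg2, Ppargc1b and the single-stranded DNA-binding protein Ssbp1 fell. Ppargc1b had 21.03, 21.9 and 26.7 CPM at D4, against 33.2, 29.97 and 50.2 CPM at D0 (-0.74 ± 0.20, edgeR adjusted p = 0.0182), whereas in patterned C2C12 myotubes it had 24.6, 31.9 and 25.6 CPM, against 18.8, 20.3 and 20.8 CPM in myoblasts. The 2 responses differed by -1.16 ± 0.23 on the log2 scale in a test of the interaction (edgeR adjusted p = 0.000805), and those of Lrpprc by -0.59 ± 0.15 and of Ssbp1 by -0.45 ± 0.15 (adjusted p = 0.00557 and 0.0288). These 3 are the members called in that test, all lower, where 9.87% of all genes were called higher and 10.6% lower. Without the third primary D4 library or either the first or the second primary D0 library, 5 members were called in place of 3, and a fit with the replicate number as a block also called 5, all lower. Ssbp1 was called in 8 of 12 refits without 1 library, and Lrpprc and Ppargc1b in all 12. No mitochondrial message was among the 3 (edgeR, 0 of 13 also at an unadjusted p under 0.05, and 0 by DESeq2).

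Primary libraries with the same number deviated together, and a fit with the replicate number as a block called 24 members between D4 and D0 in place of 16, namely 10 mitochondrial messages higher, 8 nuclear members higher and 6 lower. The libraries numbered 3 were the highest of their group at all of D0, D4 and D7 for 12 of the 26 nuclear members (46.2%) and for 6 of 13 mitochondrial messages (46.2%), where this held for 22.2% of all 14352 genes. Tefm was at 23.2, 31.9 and 30.02 CPM in these libraries at D0, D4 and D7, and at 11.4 to 16.1 CPM in the other 6 primary libraries. Tfam was at 98.9, 88.9 and 91.1 CPM in them, and at 51.8 to 57.3 CPM in the other 6. Top1mt, the mitochondrial topoisomerase, was higher by 1.02, 0.85 and 0.98 on the log2 scale and Polrmt by 0.98, 0.63 and 0.52. Gabpa alone was the lowest of its group in all 3, and Ppargc1a was lower by 1.13 and 1.74 on the log2 scale at D4 and D7 but not at D0. These are descriptions of libraries, not of a treatment.

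**Figure D3:**
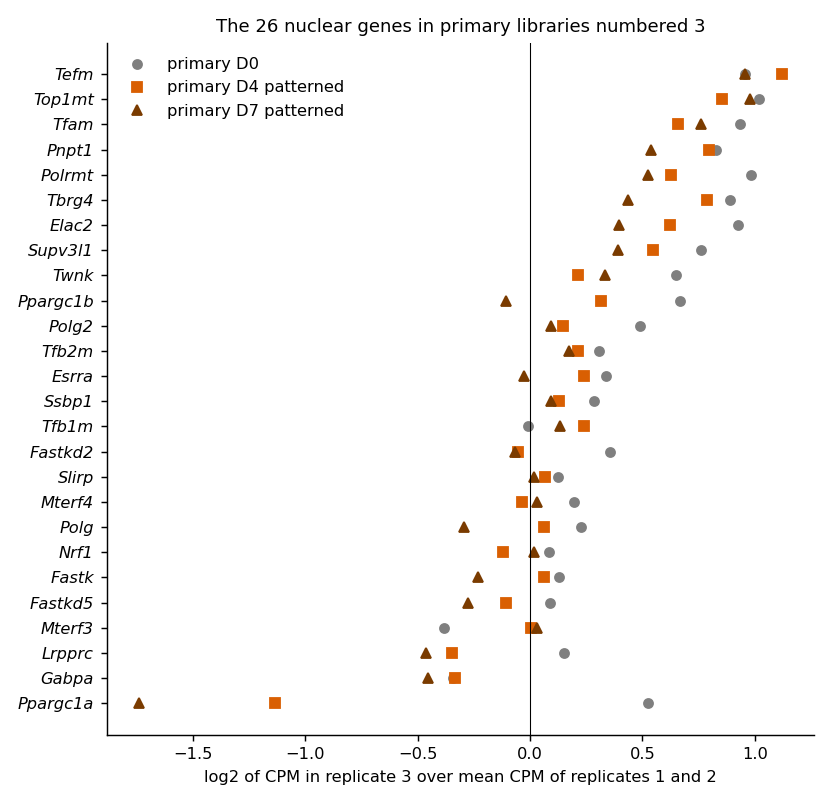
Log2 of the CPM in the primary library numbered 3 over the mean CPM of the libraries numbered 1 and 2 (x axis), for the 26 nuclear members (rows) at D0, D4 and D7 (point shapes). Tefm, Top1mt and Tfam lie at 0.66 to 1.12 in all 3 groups, while Ppargc1a lies at 0.52 at D0 and at -1.13 and -1.74 at D4 and D7.

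**Figure D4:**
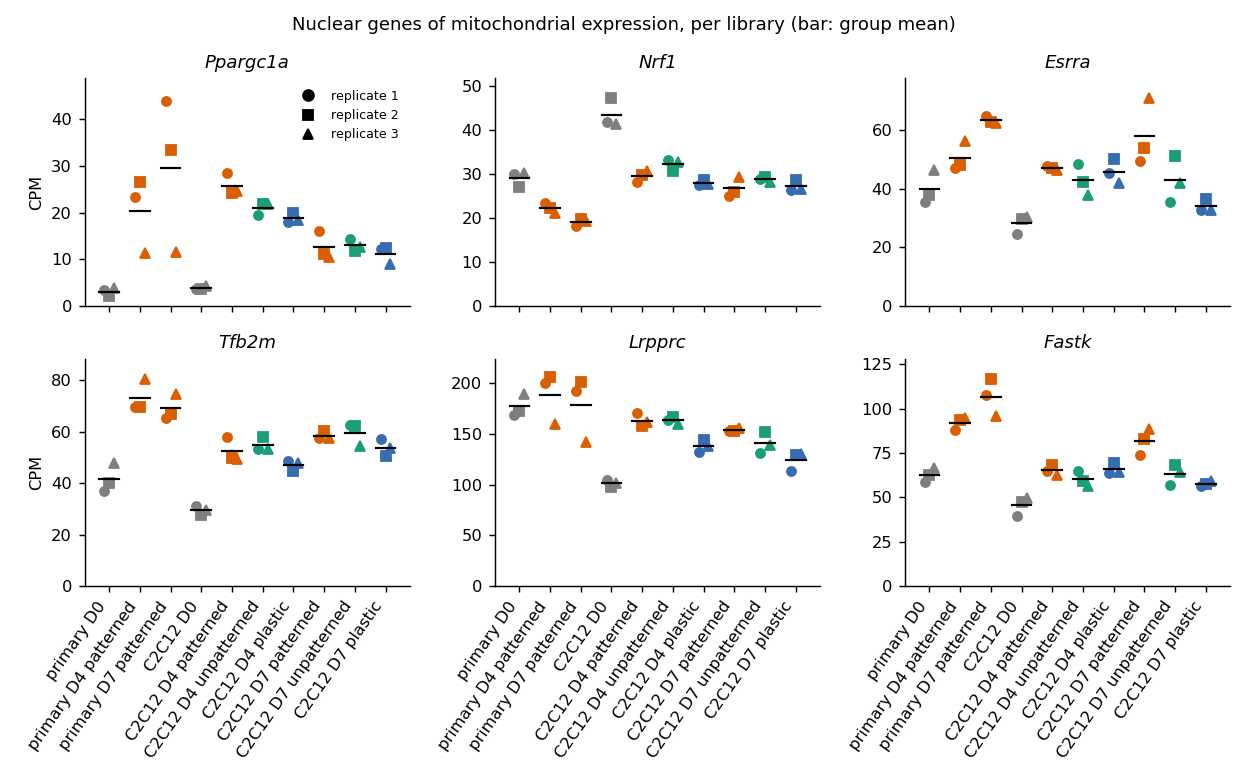
CPM (y axis) of 6 nuclear members in every library by group, with replicate numbers as point shapes and a line at each group mean. Ppargc1a lies between 2.01 and 4.23 CPM in all 6 myoblast libraries and between 8.94 and 43.9 CPM in all myotube libraries, and Nrf1 is highest in C2C12 myoblasts.

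Between D7 and D4 in C2C12 myotubes 18 of the 39 members were called for patterned cultures, 1 for unpatterned and 2 for plastic ones. On plastic, Ppargc1a fell to 12.2, 12.5 and 8.94 CPM at D7, against 18.0, 19.9 and 18.4 CPM at D4 (log2 fold change -0.73 ± 0.14, edgeR adjusted p = 0.00256), and Tbrg4 fell by 0.20 ± 0.07 (0.0451), a call lost without any 1 of 5 of its 6 libraries (adjusted p up to 0.215). On unpatterned gelatin Ppargc1a fell to 14.4, 11.8 and 12.7 CPM at D7, against 19.5, 21.8 and 21.9 CPM at D4 (-0.70 ± 0.14, edgeR adjusted p = 0.0109). This call was lost without the third D4, the second D7 or the third D7 unpatterned library (adjusted p = 0.054, 0.077 and 0.054). No mitochondrial message passed on either substrate (edgeR, 0 of 13 each, with 2 each at an unadjusted p under 0.05), and the median log2 fold changes were -0.35 and -0.46. Of all genes 6.47% rose and 8.37% fell on plastic, and 1.62% rose and 1.31% fell on unpatterned gelatin. In primary cells no member passed between D7 and D4 in the edgeR test (1 nuclear member at an unadjusted p under 0.05, 0 by DESeq2), and 0% of all genes were called in either direction.

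On patterned gelatin 12 of the 13 mitochondrial messages were lower at D7 than at D4 and none was higher (edgeR, median log2 fold change -1.52), beside 11.3% of all genes called higher and 9.03% called lower. mt-Nd1 had 1135, 962 and 486 CPM at D7, against 3311, 1967 and 3034 CPM at D4 (log2 fold change -1.71 ± 0.30, edgeR adjusted p = 0.00184). mt-Nd2, a further membrane subunit of complex I, had 389, 290.3 and 163 CPM, against 1698, 816 and 1696 CPM (-2.35 ± 0.42, adjusted p = 0.0022). mt-Nd4 had 573, 266 and 270.4 CPM, against 2499, 918 and 2583 CPM (-2.45 ± 0.46, adjusted p = 0.0027), and mt-Co3 had 2117, 2151 and 883 CPM, against 4336, 3734 and 3773 CPM (-1.23 ± 0.24, adjusted p = 0.00389). For 10 of the 13 messages the D7 and D4 libraries did not overlap, a count for which no share over all genes was computed. The decrease covered messages of all 4 complexes that mitochondrial DNA contributes to, from -0.91 ± 0.26 for mt-Co1 to the value of mt-Nd4, and with the copies added 12 were still lower, mt-Nd4 by -1.99 ± 0.39 and mt-Atp6 by -1.65 ± 0.36.

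mt-Nd6, the message from the other strand, was the 1 of the 13 not called. It had 197, 195 and 327 CPM at D7 patterned, against 242, 188 and 232 CPM at D4 patterned (0.11 ± 0.21, edgeR adjusted p = 0.741), and the groups overlapped. Its direction rested on single libraries, since the value was -0.23 without the third D7 patterned library and -0.0086 without the second D4 patterned library (edgeR adjusted p = 0.43 for the first of these). As a share of the mitochondrial messages it was 0.878%, 0.914% and 3.09% at D7, against 0.497%, 0.63% and 0.509% at D4 (exact permutation p = 0.1, the smallest that 3 against 3 allows, adjusted p = 0.4 over 16 comparisons). The third D7 library held the highest share, and the other pair was also above all 3 D4 libraries. On plastic the mean share was likewise higher at D7, 0.777% against 0.652% at D4, without overlap (exact permutation p = 0.1, adjusted p = 0.4). On unpatterned gelatin it was 0.904% at D7 against 0.676% at D4, with overlap (exact permutation p = 0.2, adjusted p = 0.4). The D7 unpatterned libraries ran from 0.687% to 1.15%, a range that holds the first and second D7 patterned libraries.

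Nuclear members moved little over the same days on patterned gelatin, with 1 of 26 higher and 5 lower (median 0.01). Ppargc1a had 16.0, 11.03 and 10.6 CPM at D7, against 28.5, 24.1 and 24.5 CPM at D4 (log2 fold change -1.04 ± 0.15, edgeR adjusted p = 0.000332). Pnpt1 fell by 0.46 ± 0.13, Gabpa by 0.34 ± 0.11 and Mterf3, a repressor of mitochondrial transcription, by 0.28 ± 0.10, and Fastk, which stabilises mt-Nd6 RNA, rose by 0.30 ± 0.09 (edgeR adjusted p = 0.0191, 0.0393, 0.0478 and 0.0289). Pnpt1 was lost without any 1 of 4 libraries (adjusted p up to 0.078), Fastk without any 1 of 4 (up to 0.155) and Gabpa without any 1 of 5 (up to 0.152). Tfam was at 56.6, 55.1 and 81.7 CPM at D7, against 54.1, 47.5 and 47.9 CPM at D4, and Polrmt at 49.3, 52.8 and 56.9 CPM, against 41.8, 50.7 and 44.0 CPM, and neither passed.

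2 limits bear on this decrease, and 1 technical measure moved with it. Kallisto's mean shortening of transcripts, which follows the fragment length of a library, was 175, 189 and 184 bases at D7 patterned, against 232, 247 and 245 bases at D4 patterned, and its part in the result was not tested. Without the third D7 patterned library 10 of 13 messages were still lower, and mt-Co1 and mt-Atp8 were not (-0.62, edgeR adjusted p = 0.073, and -1.85, adjusted p = 0.052), while among nuclear members Ppargc1a and Nrf1 were called, both lower. Without the first or the third D4 patterned library 11 members were called in place of 18. When the 2 patterned groups were fitted by themselves instead of sharing the spread of all 21 C2C12 libraries, 2 of 39 members were called in place of 18, 1 of them mitochondrial, with a median of -1.55 over the 13 and 224 genes called in all in place of 3016.

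Few of these genes were called between substrates at D4. Between patterned and plastic no member passed (edgeR, 0 of 39, with 1 mitochondrial and 5 nuclear members at an unadjusted p under 0.05, and 2 by DESeq2), where 2.1% of all genes were higher and 1.46% lower. Lrpprc was at 170.0, 157 and 161 CPM in patterned myotubes, 164, 166 and 159 CPM in unpatterned and 132, 144 and 138 CPM on plastic. It passed only between unpatterned and plastic (log2 fold change 0.23 ± 0.07, edgeR adjusted p = 0.042), beside 4.02% of all genes higher and 3.87% lower, and that call was lost without any 1 of the 6 libraries (0.068 to 0.124). On patterned gelatin against plastic the value was 0.24 ± 0.07 (adjusted p = 0.056), so the 2 gelatins gave close values on either side of the threshold. Patterned and unpatterned myotubes at D4 had no member called (edgeR, 0 of 39, with 2 nuclear members at an unadjusted p under 0.05, and 0 by DESeq2), where 0.00674% of all genes were higher and 0% lower.

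At D7, patterned myotubes had lower mitochondrial messages than plastic myotubes and higher levels of several nuclear members. Of the 13 messages 10 were lower and none was higher (edgeR, median -1.30), and of 26 nuclear members 10 were higher and 2 lower, beside 12.9% of all genes higher and 10.9% lower. mt-Nd4 had 573, 266 and 270.4 CPM in patterned myotubes, against 2308, 1419 and 1556 CPM on plastic (log2 fold change -2.28 ± 0.45, edgeR adjusted p = 0.0037). mt-Cytb, the central subunit of complex III, had 1578, 969 and 691 CPM, against 3243, 2162 and 2393 CPM (-1.30 ± 0.30, adjusted p = 0.00708). mt-Nd2 and mt-Co3 were lower by -1.71 ± 0.42 and -1.0025 ± 0.24 (edgeR adjusted p = 0.00973 each). Not called were mt-Nd3, mt-Nd6 and mt-Co2, whose groups overlapped, and mt-Co2 was called once its copy was added (-0.77 ± 0.22, edgeR adjusted p = 0.0196). The 10 called messages had no overlap between patterned and plastic libraries, and the share of all genes without overlap was not computed. Markers of other cell states differed in this comparison too. Fibroblast markers summed to 417 CPM in patterned and 229.9 CPM in plastic myotubes, with 2 of 4 tested called higher and 1 and 2 of the 6 genes at 0, and Col1a1 was at 185 to 353 CPM in patterned and 60.6 to 144 CPM in plastic libraries. Proliferation markers summed to 81.1 CPM in patterned and 157 CPM in plastic myotubes, with 2 of 3 called lower. Their part in the result was not tested.

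The nuclear members higher in D7 patterned than plastic myotubes were led by Fastk, with 73.9, 82.7 and 88.4 CPM, against 56.2, 57.8 and 59.1 CPM (0.47 ± 0.09, edgeR adjusted p = 0.00322), and Esrra, with 49.5, 53.8 and 70.8 CPM, against 32.8, 36.4 and 32.7 CPM (0.74 ± 0.14, adjusted p = 0.00322). Twnk had 35.7, 38.9 and 37.8 CPM, against 25.6, 27.7 and 28.4 CPM (0.43 ± 0.09, adjusted p = 0.00424). Polrmt, Lrpprc, Tbrg4, Ppargc1b, Tfam, Polg and Elac2 were also called higher, by 0.21 to 0.47. Mterf3 was lower, with 48.7, 39.1 and 45.9 CPM, against 58.4, 58.5 and 58.8 CPM (-0.42 ± 0.10, edgeR adjusted p = 0.00725), and Pnpt1 was lower by -0.52 ± 0.13 (0.01). Thus the polymerase, the packaging factor, the helicase and the polymerase subunit Polg were above their plastic levels in the libraries in which the messages were below them.

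The same 2 limits apply, since both comparisons use the same D7 patterned libraries, while the shortening of transcripts was 176, 191 and 198 bases in D7 plastic libraries. Without the third D7 patterned library 7 messages were lower, now with mt-Nd6 (-0.58, edgeR adjusted p = 0.048), and 8 nuclear members were called, namely Polrmt, Twnk, Lrpprc, Fastk, Ppargc1b and Esrra higher and Mterf3 and Pnpt1 lower, while Tfam was not (0.19, adjusted p = 0.22). Without the first D7 plastic library 13 members were called in place of 22. With the 2 groups fitted by themselves no member was called (edgeR, 0 of 39, and 21 genes in all in place of 3537), although the median of the 13 was -1.31.

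Against unpatterned gelatin at D7, with the same patterned libraries, no member passed in the edgeR test. The median over the 13 messages was -1.08, and 12 of 13 were at an unadjusted p under 0.05, beside 2943 of all 14844 genes. For 7 of 13 the groups did not overlap, and no share over all genes was computed for this count. mt-Nd4 came nearest to the threshold, with 573, 266 and 270.4 CPM in patterned, against 2429, 725 and 1203 CPM in unpatterned myotubes (-1.98 ± 0.45, edgeR adjusted p = 0.0513). DESeq2 called 12 members, 8 mitochondrial messages, each lower, and 4 nuclear members, where edgeR called 0. Of all genes 0.397% were higher and 0.148% lower by edgeR. Without the second unpatterned library 4 members were called and without the first patterned library 12. Without the third patterned library mt-Nd6 was at -0.61, further from 0 than mt-Co1, mt-Co2, mt-Co3 and mt-Nd3 (-0.46, -0.43, -0.49 and -0.45). Unpatterned and plastic myotubes at D7 had no member called (edgeR, 0 of 39, with 6 nuclear members at an unadjusted p under 0.05, and 0 by DESeq2), beside 2.49% of all genes higher and 0.977% lower, and without the first unpatterned library 1 member was called.

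**Figure D5:**
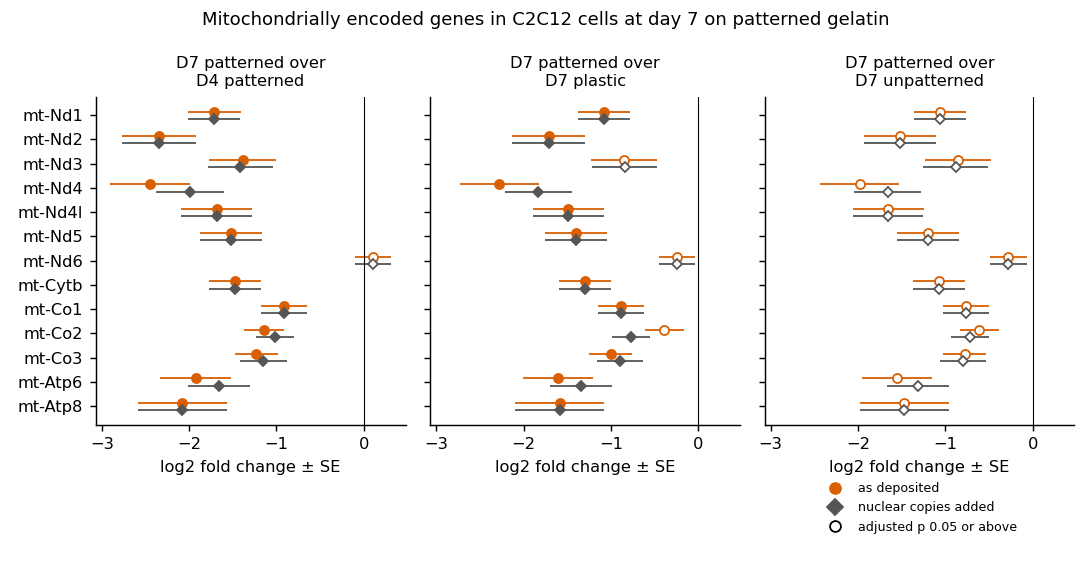
Log2 fold change with its SE (x axis) of the 13 mitochondrial messages (rows) in D7 patterned C2C12 myotubes over D4 patterned, D7 plastic and D7 unpatterned myotubes (panels, n = 3 each), from counts as deposited and with nuclear copies added (point shapes), with open points where the adjusted p was 0.05 or above. With all libraries mt-Nd6 lies nearest to 0 in all panels, at 0.11 over D4 patterned myotubes, while the medians are -1.52, -1.30 and -1.08.

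Whether the change of D7 over D4 differed between patterned gelatin and plastic was tested as an interaction. It called 5 members, beside 6.24% of all genes higher and 5.5% lower. mt-Co3 was the single message, with a change lower by -1.34 ± 0.34 on patterned gelatin (edgeR adjusted p = 0.0281), and it was not called with its copy added (-0.95 ± 0.37, adjusted p = 0.0888). Mterf3 (-0.54 ± 0.13, edgeR adjusted p = 0.0276) and Pnpt1 (-0.70 ± 0.18, 0.028) were lower, and Fastk (0.48 ± 0.13, 0.0324) and Esrra (0.70 ± 0.20, 0.0388) higher. The median over the 13 messages was -1.17. The count depended on single libraries, with 0 members called without the second D4 plastic, the first D4 patterned or the third D4 patterned library, 1 without the first D7 plastic library, 2 without the first D4 plastic or the third D7 plastic library, 3 without the third D4 plastic or the third D7 patterned library, and 16 without the first D7 patterned library. Over the 12 refits without 1 library mt-Co3 was called in 8, Mterf3 in 9, Pnpt1 in 6, Fastk in 4 and Esrra in 3. With these 4 groups alone no member was called (edgeR, 0 of 39, of 193 genes in all).

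Mitochondrial messages that differed between primary and C2C12 cells were all higher in primary cells, 5 of 13 at D0, 5 at D4 and 12 at D7 (edgeR, 0 lower at each stage). Their medians were 0.39, 0.60 and 1.99. Of all 15447 genes 29.6%, 25.7% and 25% were higher in primary cells at D0, D4 and D7 and 27.9%, 25% and 26.4% lower. mt-Co3, a core subunit of cytochrome c oxidase, had 5328, 5887 and 6233 CPM in primary and 2372, 2424 and 2226 CPM in C2C12 cells at D0. It had 8827, 10898 and 15175 CPM in primary and 4336, 3734 and 3773 CPM in patterned C2C12 cells at D4, and 8293, 9045 and 16379 CPM in primary and 2117, 2151 and 883 CPM in patterned C2C12 cells at D7. The groups did not overlap at any stage (log2 fold changes 1.31 ± 0.28, 1.56 ± 0.28 and 2.71 ± 0.29, edgeR adjusted p = 0.00032, 6.69e-05 and 4.86e-08). The nuclear copy of mt-Co3 took a larger share in C2C12 libraries, and with it added the differences were 0.98 ± 0.30, 1.197 ± 0.30 and 2.31 ± 0.31.

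mt-Co2 was higher by 1.37 ± 0.24, 1.13 ± 0.24 and 1.81 ± 0.24 (edgeR adjusted p = 2.81e-05, 0.000332 and 1.01e-06) and mt-Co1 by 0.77 ± 0.26, 0.73 ± 0.26 and 1.73 ± 0.27 (0.0156, 0.023 and 8.68e-06). These values of mt-Co2 are without its copy and so are uncertain. At D0 the copy took 80.4%, 61.2% and 77.3% of the pair in C2C12 and 67.8%, 69.3% and 65.4% in primary libraries. The shares were 69.3%, 57.0% and 66.7% against 66.3%, 50.8% and 60.1% at D4. At D7 they were 64.25%, 73.4% and 67.6% against 71.4%, 67.8% and 73.6%. mt-Nd1 had 3548, 3209 and 4382 CPM in primary and 1135, 962 and 486 CPM in patterned C2C12 myotubes at D7 (2.11 ± 0.30, edgeR adjusted p = 2.13e-06), whereas at D0 it had 2412, 2215 and 2352 CPM in primary and 2355, 1387 and 1843 CPM in C2C12 myoblasts, which overlapped. mt-Nd6 was called at D0 (1.19 ± 0.28, edgeR adjusted p = 0.000801), and at D7 it lay at the threshold (0.66 ± 0.28, adjusted p = 0.0507). There it was called by DESeq2 (adjusted p = 0.036), by edgeR with DESeq2 size factors (0.045), without the low-count filter (0.036) and with the replicate block (0.049), and without the second or the third primary D7 library (0.026 and 0.022) or the third D7 patterned C2C12 library (0.98, adjusted p = 0.0095). The call on mt-Cytb at D0 was lost without the second C2C12 D0 library (adjusted p = 0.058), and those on mt-Cytb and mt-Nd3 at D4 without the second D4 patterned C2C12 library (0.096 and 0.073) or the third primary library (0.095 and 0.128), while mt-Nd3 at D4 was also lost without the third D4 patterned C2C12 library (0.052). The call on mt-Nd3 is given without its copy. That copy took 12.8%, 3.58% and 22.0% of the pair in D4 patterned C2C12 libraries and 0 in the primary ones. Without the second D4 patterned C2C12 library 8 members were called at D4 in place of 13, and the D7 comparison uses the same D7 patterned C2C12 libraries as those above. Without the third D7 patterned C2C12 library mt-Atp8 was not called at D7 (1.25, edgeR adjusted p = 0.078). Cell type here also carries the source, culture history and the fibroblast and smooth muscle marker levels given above, which cannot be told apart from it.

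Of the 26 nuclear members, 14 were higher in primary than in C2C12 cells and 4 lower at D0, and 6 were higher and 2 lower at D4 and again at D7. Beside them, 29.6%, 25.7% and 25% of all genes were higher at D0, D4 and D7, and 27.9%, 25% and 26.4% were lower. The counts at D4 and D7 thus did not exceed the shares over all genes. Lrpprc had 169, 173 and 189 CPM in primary and 104, 97.4 and 102 CPM in C2C12 myoblasts (0.81 ± 0.11, edgeR adjusted p = 6.44e-07), and at D4 and D7 it was not called. Nrf1 was lower at all stages, with 30.1, 27.1 and 30.4 CPM in primary and 41.9, 47.4 and 41.4 CPM in C2C12 myoblasts (-0.58 ± 0.08, adjusted p = 8.26e-07) and log2 differences of -0.41 ± 0.08 at D4 and -0.49 ± 0.08 at D7 (edgeR adjusted p = 0.000138 and 1.57e-05). Fastkd5, which is needed to release messages not flanked by transfer RNAs, was higher by 0.68 ± 0.11, 0.43 ± 0.11 and 0.41 ± 0.11, and Ppargc1b was higher at D0 alone, by 0.92 ± 0.17 (edgeR adjusted p = 4.42e-05). Tfb1m, Tfb2m, Fastk and Fastkd5 were called higher in primary cells at all 3 stages. At D7 Ppargc1a had 43.9, 33.4 and 11.6 CPM in primary and 16.0, 11.03 and 10.6 CPM in patterned C2C12 myotubes, and was called (1.23 ± 0.32, edgeR adjusted p = 0.00245) although the third primary library lay inside the C2C12 range. Without the third D7 patterned C2C12 library Esrra was called higher at D7 (0.33, edgeR adjusted p = 0.048), and Polg2 was not called (-0.33, adjusted p = 0.091). Of the 39 members Slirp, at 18.3 to 39.8 CPM over the 30 libraries, and Fastkd2, a protein of mitochondrial RNA granules at 25.5 to 36.9 CPM, were called by edgeR in none of the 18 comparisons.

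Other genes of mitochondrial biogenesis give the setting. Of the nuclear subunits of oxidative phosphorylation, which join the 13 encoded in mitochondria, 76 of 81 tested rose and 0 fell between D0 and D4 in C2C12 cells on plastic (median 0.69), 74 rose and 0 fell on patterned gelatin (median 0.68) and 29 of 82 rose and 3 fell in primary cells (median 0.29). Of all genes tested 30.2% rose and 27.7% fell on plastic, 30.9% and 29.3% on patterned gelatin and 20.2% and 22.4% in primary cells. The muscle forms of cytochrome c oxidase subunits led on plastic, with log2 fold changes of 6.66 ± 0.31 for Cox6a2, 5.20 ± 0.25 for Cox8b and 3.99 ± 0.26 for Cox7a1 (edgeR adjusted p = 7.74e-13, 1.11e-12 and 1.17e-10). Between D7 and D4 on patterned gelatin, where 12 mitochondrial messages were lower, 17 of these 81 nuclear subunits were higher and 5 lower (median 0.21), and in D7 patterned against plastic myotubes 35 were higher and 2 lower (median 0.24), beside 11.3% of all genes higher and 9.03% lower in the first of these comparisons and 12.9% and 10.9% in the second. Atp5g3, a subunit of the ring of ATP synthase, was higher there by 0.72 ± 0.10 (edgeR adjusted p = 0.000405). Both comparisons rest on the D7 patterned libraries and on the shared estimate of spread, with the limits given above.

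Proteins of the mitochondrial ribosome moved less. Of 78, 31 rose and 3 fell between D0 and D4 on plastic (median 0.19), 17 were higher and 6 lower between D7 and D4 on patterned gelatin (median 0.11), 21 were higher and 0 lower in D7 patterned against plastic myotubes (median 0.15), and 10 rose and 3 fell in primary cells between D0 and D4 (median 0.05). Of 22 mitochondrial aminoacyl-tRNA synthetases 8 rose and 4 fell at D4 on plastic, and 9 were higher and 0 lower in D7 patterned against plastic myotubes. Of 33 further RNA processing genes 12 rose and 4 fell at D4 on plastic, and 7 were higher and 1 lower in D7 patterned against plastic myotubes. Of 23 further genes of mitochondrial DNA maintenance the counts were 9 and 4 at D4 on plastic and 5 and 2 at D7. These counts have to be read against the same background shares as above, 30.2% higher and 27.7% lower at D4 on plastic and 12.9% and 10.9% at D7. The shares of all genes were 11.3% and 9.03% for D7 over D4 on patterned gelatin and 20.2% and 22.4% in primary cells. In none of these lists was the part that rose at D4 on plastic far above the background, and a difference from it was not tested. In primary cells the part of the ribosomal proteins that rose was below it. The 2 mitochondrial ribosomal RNAs were not tested here.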

How the data were processed

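RNA from 30 libraries was sequenced as paired-end reads after Trizol extraction and NEBNext library preparation. The authors quantified each library with Kallisto on mm10 and deposited, for 88198 transcripts, estimated counts that are not normalized and TPM, which have been scaled by length and depth, with transcript lengths. Its version and transcript annotation, the strandedness and the type of RNA selection were not given in the sources used here. Transcripts were matched here by identifier to GENCODE M21 (GRCm38), and the deposited estimated counts were summed per gene and rounded. The 2167 unmatched transcripts, with 0.723% to 0.893% of a library's counts, were left out.

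Counts were scaled by TMM, filtered by filterByExpr and tested by the quasi-likelihood F test of edgeR 4.0.16 under R 4.3.3, with Benjamini-Hochberg adjustment over all genes tested and a threshold of 0.05, in a fit of 21 C2C12 libraries (14844 genes), of 9 primary libraries (14352) and of all 30 (15447) for comparisons between cell types. CPM use TMM-scaled totals, and the SE is the absolute log2 fold change over the square root of F. "Called" means an adjusted p under the threshold. Shares were compared by exact permutation tests, and nuclear copies were found with BLAST 2.17.0. Alternatives were DESeq2 1.42.0 with its own filter, its size factors in edgeR, no filter on low counts, mitochondrial genes left out of the scaling, the replicate number as a block, the groups compared fitted by themselves, each library left out in turn, shares of TPM in place of counts, and, added after the data were seen, copies summed into their genes. The edgeR step was tested on simulated data. Other software was limma 3.58.1, data.table (version 1.17.8), Python 3.11.15, numpy 2.4.6, pandas 2.3.3, scipy 1.17.1 and matplotlib 3.10.9.

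The 39 members and all lists were chosen with earlier results of these data known. All 39 are named, with full statistics for up to 4 mitochondrial and 4 nuclear members with the smallest adjusted p in a comparison and for those a statement turns on, and of the other lists up to 3 members. The study describes separate cultures for each condition, and 2 batches of C2C12 cells, while the labels give replicate numbers only and no batch, so that no batch term was fitted and p-values measure the spread between these libraries. In primary cells the 9 pairs of libraries with the same number had correlations of 0.206 to 0.778 after removal of group means, and 8 of 9 libraries were closest to their own number. The numbers thus appear to pair the primary libraries. The main fits nevertheless hold no term for the number, so the primary results given first ignore this pairing. Fits with the number as a block are given as alternatives.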

Additional observations from a re-analysis of the deposited data

Results flagged for a closer look

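Effects that differed between groups in a test of the interaction are given here as values. The change of D7 over D4 was lower on patterned gelatin than on plastic for mt-Co3 (-1.34 on the log2 scale), Mterf3 (-0.54) and Pnpt1 (-0.70), and higher for Fastk (0.48) and Esrra (0.70). The change of D4 on patterned gelatin over D0 was lower in primary than in C2C12 cells for Ppargc1b (-1.16), Lrpprc (-0.59) and Ssbp1 (-0.45).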

How the results depend on the processing

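None of the 76 calls on named members changed sign under the alternatives run. The signs of other calls were not checked. Some values that were not called changed sign. Counts of members called moved as follows. DESeq2 called 4 between D7 and D4 on plastic (edgeR 2), 2 on unpatterned gelatin (1), 2 between D4 patterned and plastic (0), 2 between D4 unpatterned and plastic (1), 12 between D7 patterned and unpatterned (0) and 11 in the interaction of substrate and day (5). DESeq2 size factors in edgeR gave 1 on plastic between D7 and D4 and 1 between D4 patterned and plastic, and leaving mitochondrial genes out of the scaling also gave 1 between D4 patterned and plastic. Without the low-count filter 0 were called between D4 unpatterned and plastic and 2 between D7 patterned and unpatterned. With the groups compared fitted by themselves 6 were called on plastic between D7 and D4, 2 on patterned gelatin between D7 and D4, 6 between D4 patterned and plastic, 7 between D4 unpatterned and plastic, 0 between D7 patterned and plastic and 0 in the interaction of substrate and day. With the copies also added in such fits, chosen after seeing the data, the counts were 26 for D4 patterned against D0 (main 17), 6, 2, 5, 6, 0 and 0 for the comparisons just named in the same order. These fits hold fewer libraries, and the cause was not otherwise tested.

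Between C2C12 libraries that share a number, deviations from the group means correlated at -0.187 to 0.223 in 63 pairs (median 0.0074), with 7 pairs over 0.1 and 7 of 21 libraries closest to their own number, and were not taken as paired. The replicate block gave 4 members between D7 patterned and unpatterned, 11 in the interaction of substrate and day, 24 between D4 and D0 in primary cells and 5 in the interaction of cell type and day, and changed no other count by over 1.5 times.

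Leaving out 1 library at a time gave, in C2C12 cells, 11 to 19 members for D4 against D0 on plastic and 16 to 23 patterned, 1 to 3, 0 to 1 and 11 to 18 for D7 against D4 on plastic, unpatterned and patterned gelatin, 0 to 0 for each of the 3 substrate comparisons at D4, 13 to 24 for D7 patterned against plastic, 0 to 12 against unpatterned, 0 to 1 for unpatterned against plastic and 0 to 16 for the interaction of substrate and day. In primary cells it gave 10 to 12 for D4 against D0 and 0 to 0 for D7 against D4, and between cell types 18 to 23, 8 to 17 and 20 to 24 at D0, D4 and D7 and 2 to 5 for the interaction. The median of the 13 messages ran over these refits from 0.49 to 0.79 for D4 against D0 on plastic (the highest without the first C2C12 D0 library), 0.49 to 0.81 patterned (lowest without the second D0 library) and 0.48 to 0.92 in primary cells. For D7 against D4 it ran from -0.55 (without the first D7 plastic library) to -0.20 (without the third D4) on plastic and from -0.77 to -0.24 on unpatterned gelatin (without the first and the second D7 library). Between primary and C2C12 cells it ran from 0.18 (without the second C2C12 library) to 0.61 (without the first) at D0 and from 0.34 (without the first primary library) to 0.77 at D4. Medians near 0 changed sign, from -0.25 to 0.16 for D4 patterned and -0.44 to 0.16 for D7 unpatterned against plastic, -0.102 to 0.12 for D4 unpatterned against plastic, -0.17 to 0.16 for D4 patterned against unpatterned, -0.28 to 0.21 for D7 against D4 in primary cells and -0.25 to 0.23 for the interaction of cell type and day. Of 76 calls on named members, DESeq2, the block and the scaling without mitochondrial genes kept all 76, the filter setting lost 3, DESeq2 size factors 1, the added copies 2, and the groups fitted by themselves 22.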

Other observations

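Replicate numbers had a like position in several C2C12 groups, although the labels give them no shared meaning. The second library was the lowest of its group for all 13 mitochondrial messages in D0, D4 plastic and D4 patterned cells and for 12 of 13 in D7 plastic and D7 unpatterned myotubes, and it was the highest for all 13 in D4 unpatterned myotubes. In D7 patterned myotubes the third library was the lowest for 9 messages and the highest for 2.

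The third D7 patterned C2C12 library also stood apart in nuclear members. Slirp, the partner of Lrpprc, was at 18.3 CPM there and at 29.8 and 37.8 CPM in the other pair, Tfb1m at 4.67 CPM against 7.03 and 8.65 CPM, and Tfam at 81.7 CPM against 56.6 and 55.1 CPM.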
